A study of Mus musculus with 2 samples.

Results

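Mir107, Mir103-2 and Mir103-1 are 3 mouse microRNA (miRNA) genes, each in an intron of a different pantothenate kinase gene. They were taken by identifier from the 2202 miRNA genes of the count tables, and all 3 matched. Pantothenate kinases phosphorylate vitamin B5, the first step in the synthesis of coenzyme A. The miRNAs in their introns are excised from the host transcript as hairpins, and either arm of a hairpin can become a mature miRNA. miR-103 and miR-107 are abundant in brain, are known in mice for regulating insulin sensitivity, and in human cells for repressing the miRNA-processing enzyme Dicer.

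Small RNA under 30 nt was sequenced from left cerebral cortex tissue. The mice were males of strain B6CASTF1/J, an F1 hybrid of C57BL/6J with CAST/EiJ, at an age of 4 days; no treatment is named. There is 1 group with 2 libraries, called library 1 and library 2 here after their labelled replicate numbers. They carry different animal numbers but the same donor identifier, so whether they come from separate animals is not settled. Their marker miRNAs also differed widely, as given below. A test between them compares 2 libraries and not conditions.

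Counts of reads on the own strand of a miRNA gene totalled 2999032 for library 1 and 3577964 for library 2. The tissue label was checked against marker miRNAs, with a per-gene binomial test between the libraries under TMM scaling (both described with the tests below). Of all 463 genes tested, 39.3% were called higher and 40.6% lower in library 1. Of 14 neuron-enriched genes, 10 were tested and all 10 were higher in library 1, and the list held 4.27% of counts there, against 0.131% in library 2. Mir9-2 and the 3 Mir124a copies, with 1 to 8 counts in library 1 and 0 in library 2, were too low to be tested and hardly separate the libraries. Reads placed at several sites, 46.1% and 39.8% of reads in libraries 1 and 2, lay outside these counts. Their part in the low values was not tested. Skeletal and heart muscle genes (9, of which 7 were tested and all 7 were lower in library 1) held 0.00730% in library 1 and 15.7% in library 2, with 6 members at 0 in library 1 and 1 in the other. The 5 Hox cluster genes, all lower in library 1, held 0.0228% there and 1.91% in library 2. In libraries 1 and 2, shares were 1.20% and 2.29% for endothelial Mir126a, 0.00453% and 0.0153% for 3 red blood cell genes, and 0.0561% and 0.0423% for the 3 leukocyte and microglia genes found in the table. Of these last 3, Mir150 (1208 and 267 counts) was higher in library 1, and Mir142 (323 and 701) and Mir223 (151 and 546) were lower. Library 2 thus went against its cortex label in the neuron-enriched, muscle and Hox cluster markers. Every ratio, mean and SD below takes the libraries as labelled, so no mean is one of like samples. The part of these markers in the results below was not tested. In bulk tissue, fewer cells of a type and less RNA per cell cannot be told apart.

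The 3 hairpins are shown because their shared arms bear on every count below. Sequences are from RefSeq on GRCm38.p6, and capitals mark the 3p arm.
Mir107 hairpin: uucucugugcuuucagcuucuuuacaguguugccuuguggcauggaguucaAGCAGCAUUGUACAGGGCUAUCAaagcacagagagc
Mir103-2 hairpin: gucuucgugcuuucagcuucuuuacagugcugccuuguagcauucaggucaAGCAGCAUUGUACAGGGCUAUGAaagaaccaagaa
Mir103-1 hairpin: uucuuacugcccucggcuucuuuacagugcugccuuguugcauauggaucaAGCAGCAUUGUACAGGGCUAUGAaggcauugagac

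The hairpins are 87 nt (Mir107) and 86 nt (both Mir103 genes) long. Global alignment gave 83.9% identity between Mir107 and Mir103-2, 80.5% between Mir107 and Mir103-1, and 80.2% between the Mir103 copies. The copies thus were no more alike over the whole hairpin than either was to Mir107. Their 3p arms were identical, however, and the longest run they shared was 27 nt, against 24 nt between Mir107 and either copy.

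The mature arms follow, with the seed (bases 2 to 8, the stretch that pairs with target RNAs) in capitals.
miR-107-3p: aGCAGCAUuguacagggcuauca
miR-103-3p: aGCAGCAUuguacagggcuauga
miR-107-5p: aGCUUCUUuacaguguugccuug
miR-103-2-5p: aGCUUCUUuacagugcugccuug
miR-103-1-5p: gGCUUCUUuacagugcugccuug

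Each arm is 23 nt long. All 3p arms had the same seed, which no mature miRNA other than miR-103-3p and miR-107-3p carried among the 1679 listed. The 5p seed was likewise held by 3 mature miRNAs, the 5p arms of the same genes. Positions are counted from 1 at the 5′ end of the arm, with the base of the miRNA named first given first. miR-103-3p and miR-107-3p differed by G22C alone. miR-103-2-5p and miR-107-5p differed by C16U, miR-103-1-5p and miR-103-2-5p by G1A, and miR-103-1-5p and miR-107-5p by both G1A and C16U.

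Which reads these loci can be told apart by was read from the hairpins. Windows of 16 to 27 nt from the first base of each arm were looked up in the 1005 hairpins of the table; the rest of the genome was not searched. A 3p window of up to 21 nt was held by all 3 loci. From 22 nt the Mir107 window was found at Mir107 alone. The Mir103 windows were found at both copies up to 24 nt, past the end of the annotated arm, and at a single copy from 25 nt. On the 5p side, windows from base 1 belonged to 1 locus at every length. Starting at base 2, the Mir103 copies shared their 5p windows up to 23 nt, while Mir107 remained distinct. Of the 12 lengths tried from base 1 of the 3p arm, 6 were unique to Mir107 and 3 to each Mir103 copy. Counts are per hairpin and do not show which form was read.

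**Figure D1:**
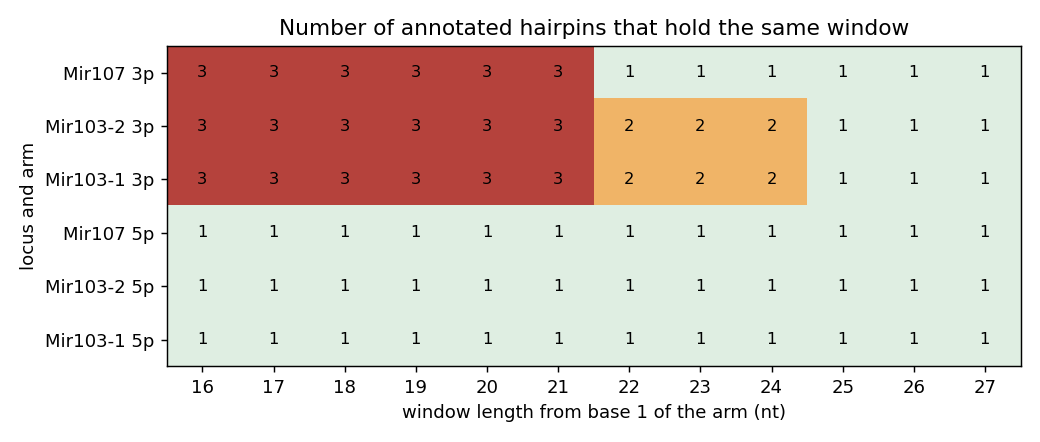
Number of annotated hairpins (of 1005) that hold the window of a given length (x axis, nt) starting at base 1 of each arm (rows). The Mir107 3p window belongs to 1 hairpin from 22 nt, and the Mir103 3p windows from 25 nt.

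All 3 genes lay on their host's strand in intron 5 of the 6 introns of the principal transcript (GENCODE M21, mm10). Mir107 (ENSMUSG00000065594.1) is at chr19:34820687-34820773 on the minus strand, in a Pank1 intron of 7282 nt, 326 nt after the upstream exon. Mir103-2 (ENSMUSG00000065563.1) is at chr2:131288052-131288137 on the plus strand, in a Pank2 intron of 5801 nt, 454 nt after the upstream exon. Mir103-1 (ENSMUSG00000065553.1) is at chr11:35782396-35782481 on the plus strand, in a Pank3 intron of 1740 nt, 688 nt after the upstream exon. No annotated host transcript had an exon over a hairpin: 3 of 4 Pank1, 7 of 8 Pank2 and the 1 Pank3 transcript spanned it as intron. No gene other than the host overlapped them on either strand, and their opposite-strand counts were 0 in both libraries.

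**Figure D2:**
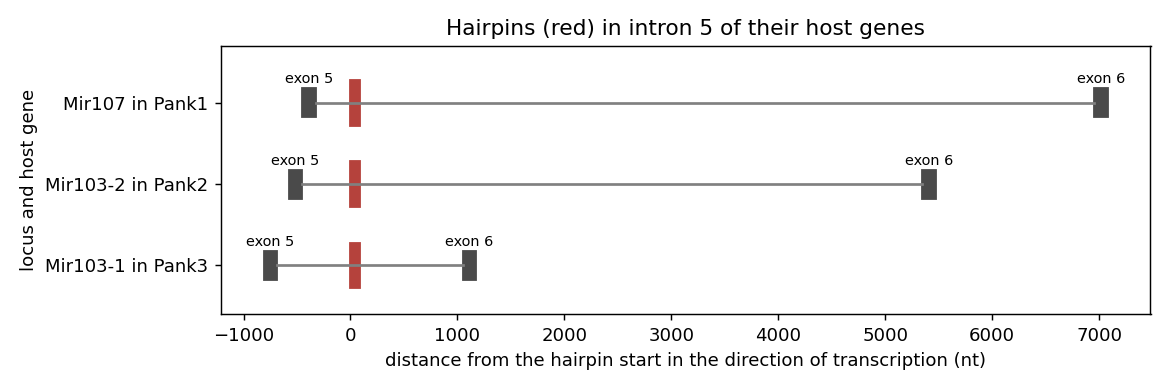
Position of each hairpin (red) between exons 5 and 6 (dark boxes) of its host gene; the x axis is the distance from the hairpin start in the direction of transcription (nt). The hairpins sit 326 to 688 nt after exon 5, in introns of 1740 to 7282 nt.

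Nearly all counts of these loci were at Mir107, whose 3p windows are unique from 22 nt, against 25 nt at the Mir103 copies. The part of this difference in the split of counts was not tested. The 3 genes together held 9000 counts in library 1 and 1073 in library 2, or 0.300% and 0.0300% of own-strand counts. Mir107 took 98.7% of the 9000 (exact Clopper-Pearson 95% interval 98.5 to 99.0) and 92.3% of the 1073 (90.5 to 93.8). Mir103-2 took 1.07% in library 1 (0.865 to 1.30) and 6.80% in library 2 (5.37 to 8.48). Mir103-1 took 0.189% in library 1 (0.110 to 0.302) and 0.932% in library 2 (0.448 to 1.71). Intervals cover counting error only, since reads amplified from the same molecule are not independent.

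Mir107 had 8887 counts in library 1 and 990 in library 2. In CPM (own-strand counts scaled to 1e6 per library) that was 2963 (exact Poisson 95% interval 2902 to 3026) and 276.7 (259.7 to 294.5), with a mean of 1620.0 ± 1899.7 CPM (SD, n = 2). It ranked 61 in library 1 and 140 in library 2 among the 2202 genes. Library 1 was far the higher, and the SD exceeded the mean.

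Mir103-2 had 96 and 73 counts in libraries 1 and 2. These were 32.0 CPM (25.9 to 39.1) and 20.4 CPM (15.99 to 25.7), with a mean of 26.2 ± 8.21 CPM (SD, n = 2), at ranks 262 and 237. The 2 intervals narrowly missed overlap in CPM, which scales by total counts. Under that scaling 90.1% of the 463 tested genes were called between the libraries, and with TMM the direction was the opposite (below).

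Mir103-1 had 17 counts in library 1 and 10 in library 2. These were 5.67 CPM (3.30 to 9.08) and 2.79 CPM (1.34 to 5.14), with a mean of 4.23 ± 2.03 CPM (SD, n = 2), at ranks 357 and 312. Its intervals overlapped, and both values were above the 1.00 and 0.838 CPM that a count of 0 (3 counts) allows.

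Per 100 nt of hairpin the order of levels was the same in both libraries. In libraries 1 and 2, Mir107 had 3406 and 318.0 CPM per 100 nt, Mir103-2 had 37.2 and 23.7, and Mir103-1 had 6.59 and 3.25. No 2 neighbours in this order had overlapping counting intervals within a library.

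**Figure D3:**
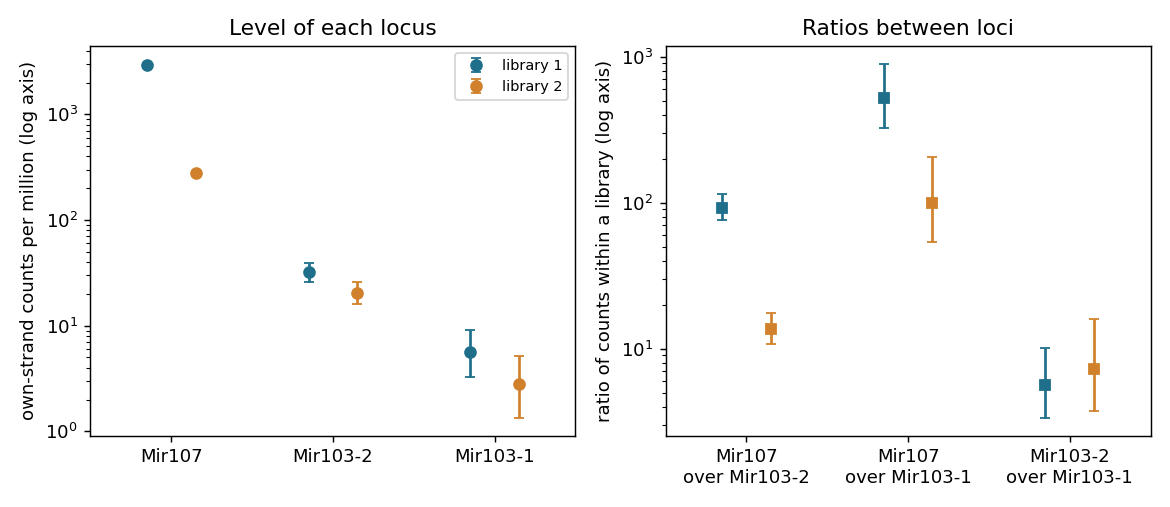
Left, CPM of each locus (log axis) with exact Poisson 95% intervals; right, ratio of counts between loci within each library (log axis) with exact binomial 95% intervals. Mir107 stands at 2963 CPM in library 1, against 276.7 CPM in library 2, while Mir103-2 had 5.65 and 7.30 times the counts of Mir103-1.

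The ratio between loci within a library needs no scaling, and 3 pairs were compared. Mir107 had 92.6 times the counts of Mir103-2 in library 1 (95% interval 75.7 to 114.4) and 13.6 times in library 2 (10.7 to 17.4). The odds ratio was 6.82 (interval 4.93 to 9.42; Fisher's exact two-sided test on the counts, Benjamini-Hochberg adjusted p = 8.99e-28). Against Mir103-1, Mir107 had 523 times the counts in library 1 (326 to 898) and 99.0 times in library 2 (53.6 to 207), an odds ratio of 5.28 (2.15 to 12.2; Fisher's exact test, adjusted p = 0.000267). In these counts Mir107 was thus higher relative to each Mir103 copy in library 1, beyond counting error. Of all 463 tested genes, 79.9% differed between the libraries in the binomial test with TMM, and other pairs of genes were not compared. Reads that fit both Mir103 copies, such as 3p windows up to 24 nt, may be missing from the counts. The ratios are therefore of counts and not of the output of the loci.

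No such shift was detectable between the Mir103 copies. Mir103-2 had 5.65 times the counts of Mir103-1 in library 1 (3.35 to 10.1) and 7.30 times in library 2 (3.75 to 15.9). The odds ratio was 0.775, and its interval, 0.298 to 1.92, leaves room for a change of either sign (Fisher's exact test, adjusted p = 0.676). The counts of Mir103-1 limit this comparison.

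Between the libraries, each gene was also tested against all others by an exact two-sided binomial test of the split of its counts, with TMM (trimmed mean of M-values) scaling and Benjamini-Hochberg adjustment over the 463 genes with at least 10 counts summed. All 3 loci passed that filter. Log2 ratios set library 1 over library 2, with a prior of 1 CPM. Of all tested genes 79.9% passed, 39.3% higher and 40.6% lower, so a call says little by itself. With total counts 90.1% passed, 63.7% higher and 26.3% lower, since TMM places the log2 ratios of abundant genes 1.40 below those from total counts. Over all tested genes the log2 ratio had a median of 0.26 (TMM) or 1.35 (total counts). A negative binomial test with TMM and an assumed biological coefficient of variation of 0.1 called 74.5% of genes, 35.9% higher and 38.7% lower.

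Mir107 was higher in library 1 under both scalings. Its log2 ratio was 2.01 (TMM) or 3.42 (total counts; 10.7-fold, 95% interval 10.03 to 11.4; binomial adjusted p no larger than 3.86e-300). With the negative binomial test the adjusted p was 3.1e-20. Of the 463 tested genes, 89 (19.2%) had a higher ratio. The 10 tested neuron-enriched genes, all higher in the same library, had a median log2 ratio of 3.70 with TMM, and their part in the Mir107 ratio was not tested.

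Mir103-2 changed direction with the scaling. With TMM it was lower in library 1, at a log2 ratio of -0.73 (binomial adjusted p = 0.00162), and with total counts higher, at 0.63 (1.57-fold, interval 1.15 to 2.16; binomial adjusted p = 0.00505). It was one of 44 tested genes (9.50%) called in opposite directions by the scalings. With a filter of 100 counts the TMM ratio was -0.31 and no longer passed (binomial adjusted p = 0.158; 0.000126 to 0.158 over all alternatives).

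Mir103-1 passed under neither scaling. Its log2 ratio was -0.31 with TMM (binomial adjusted p = 0.574) and 0.81 with total counts (2.03-fold, interval 0.877 to 4.96; binomial adjusted p = 0.0899; 0.0899 to 0.815 over all alternatives that tested it).

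**Figure D4:**
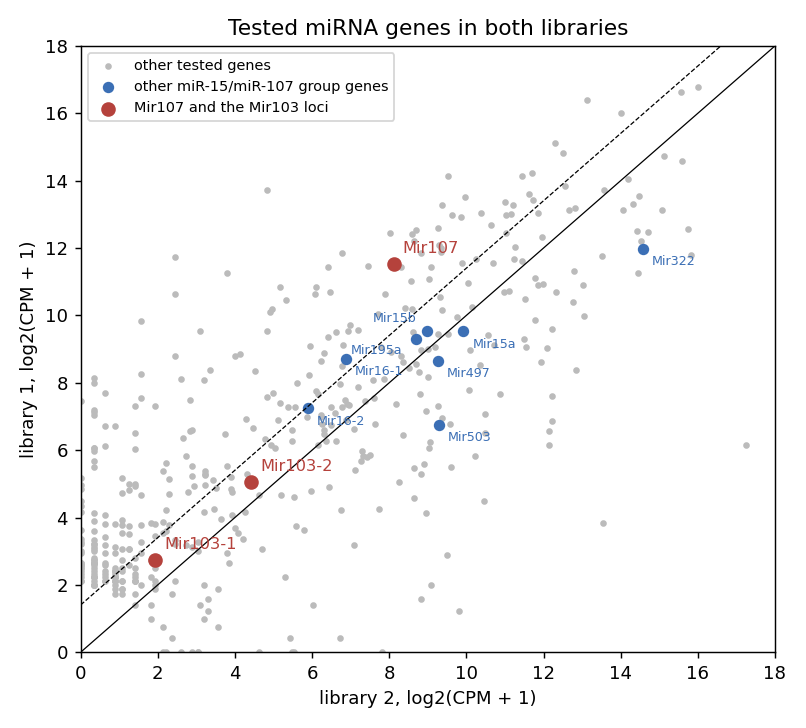
Level of each of the 463 tested genes as log2(CPM + 1) in library 1 (y axis) against library 2 (x axis). The solid line marks equal CPM and the dashed line, for abundant genes, equal level after TMM scaling; Mir107 lies above both, and Mir103-2 and Mir103-1 between them.

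miR-103 and miR-107 belong to the miR-15/miR-107 group, whose members share 6 bases (AGCAGC) near the 5′ end and include miRNAs known for restraining the cell cycle. The list, chosen with earlier results of these data known, had 13 genes. These 6 bases began at position 1 in miR-103-3p and miR-107-3p and at position 2 in the other group members that hold them, which shifts the seed by a base. Of 1679 mature miRNAs in the table, 2 (0.119%) had the bases at position 1 and 11 (0.655%) at position 2. These 11 include miR-6342, miR-6353 and miR-6419, which are not on the list, while listed Mir497b does not hold the bases. The seeds of 4 relatives, in capitals, show the shift.
miR-15a-5p: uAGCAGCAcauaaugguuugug
miR-16-5p: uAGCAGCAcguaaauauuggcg
miR-322-5p: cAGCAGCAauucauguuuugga
miR-503-5p: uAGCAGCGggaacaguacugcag

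Mir107 stood at the high end of the group in its ratio between the libraries. Of 11 group genes tested, TMM called 2 higher in library 1 (Mir107 and Mir16-1) and 7 lower. Total counts called 6 higher and 4 lower. Among all 463 tested genes, TMM called 39.3% higher in library 1 and 40.6% lower. The all-gene shares from total counts were 63.7% and 26.3%, so the group calls are read only beside these shares. Mir195b and Mir497b, at 0 in both libraries, were not tested. The median log2 ratio was -0.80 with TMM, beside 0.26 over all tested genes, and 0.60 with total counts, beside 1.35. Without the 3 pantothenate kinase loci it was -1.32 and 0.08.

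Mir322 and Mir503, neighbours in an X-linked cluster, were lower in library 1 under both scalings. Mir322 had 12134 counts in library 1 and 86819 in library 2 (log2 ratio -3.99 with TMM, -2.58 with total counts). Mir503 had 321 counts in library 1 and 2234 in library 2 (-3.93 and -2.53). Mir322 was the most abundant group gene in both libraries, at 4046 and 24265 CPM, and Mir107 came second in library 1.

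Mir15a and Mir16-1, and Mir15b and Mir16-2, are paired in clusters. Mir15a had 2206 counts in library 1 and 3463 in library 2 and was lower under both scalings (-1.80 with TMM, -0.40 with total counts). In libraries 1 and 2, Mir15b had 2221 and 1800 counts (-0.84 with TMM and 0.56 with total counts), and Mir195a had 1884 and 1479 (-0.80 and 0.60), so both changed direction with the scaling, as Mir103-2 did.

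Mir16-1 had 1259 counts in library 1 and 417 in library 2 and was higher under both scalings (0.44 and 1.84), but did not pass with the negative binomial test. Mir16-2 had 450 and 208 counts in libraries 1 and 2 (-0.04 and 1.35) and passed as higher with total counts but not with TMM. With TMM and a filter of 100 counts, 9 of 10 tested group genes were called, 3 of them higher, Mir16-2 included. All genes had 278 of 295 called there, 136 of them higher. The Mir16 genes share a run of 23 nt, so their counts, like those of Mir103-1 and Mir103-2, are uncertain. Mir497, which overlaps Mir497b on the other strand, had 1202 counts in library 1 and 2191 in library 2 and was lower under both scalings (-2.01 and -0.61).

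**Figure D5:**
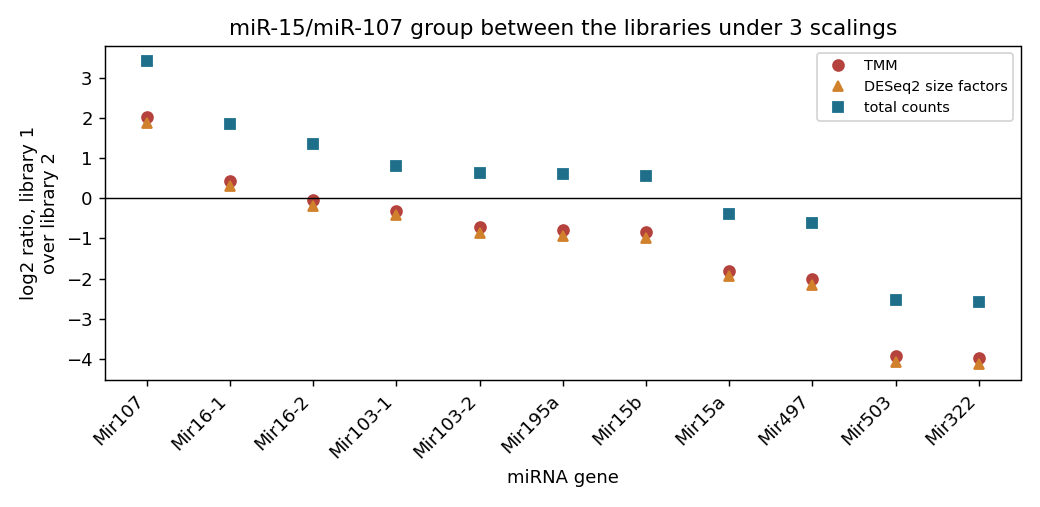
Log2 ratio (y axis, library 1 over library 2, prior of 1 CPM) of the 11 tested miR-15/miR-107 group genes under 3 scalings. Mir107 has the highest ratio under each scaling shown, from 1.87 to 3.42.

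The genes nearest to each locus were found by the Euclidean distance of log2(CPM + 1) over the 2 libraries, which describes level alone. Nearest to Mir107 were Mir181a-1 (distance 0.224; 8291 and 1138 counts in libraries 1 and 2), Mirlet7c-2 (0.659) and Mir1983 (0.678). Nearest to Mir103-2 were Mir7j (0.271; 115 and 68 counts), Mir92-2 (0.428) and Mir200a (0.537). Nearest to Mir103-1 were Mir7083 (0.110; 17 and 9 counts), Mir5113 (0.234) and Mir6538 (0.413).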

How the data were processed

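Raw read counts per miRNA gene (3 columns per library) were deposited by the authors, 1 table per library. Per the file headers deposited beside the tables, the build is mm10 and the gene annotation GENCODE M21. Which aligner and counter made them is not stated in those sources. The layout is that of STAR gene counts, where a read with several placements counts for no gene. Entries without a gene stayed out of library sizes: on the own strand, unplaced reads were 18.4% and 6.11%, reads placed at several sites 46.1% and 39.8%, and reads outside miRNA genes 5.55% and 1.47% of all reads in libraries 1 and 2.

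Own-strand counts were used. All 2202 identifiers matched GENCODE M21, and RefSeq hairpins (GRCm38.p6) matched 3 of 3 loci and 12 of 13 group genes. The hairpin of Mir15a was missing, so the window lookup lacked it, but its mature arms were present. TMM factors were 1.63 and 0.615. The exact binomial test (threshold 0.05) reflects counting error only; edgeR's quasi-likelihood test was not run, for lack of replicates in each arm. P-values were written as no smaller than 1e-300. The test was checked on simulated data with counting error alone, so the check does not cover spread between real libraries.

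Members, lists and tests were chosen with earlier results of these data known. Named were the 3 loci, listed genes with at least 10 counts summed and the 3 genes nearest each locus. Alternatives were DESeq2 size factors, total counts, unstranded counts, filters of 1 and 100 counts, a prior of 0.1 CPM, the edgeR negative binomial test at an assumed coefficient of variation of 0.1, omission of Mirlet7i (the most abundant other gene), and each library alone. Software was Python 3.11.15, Biopython 1.88, matplotlib 3.10.9, R 4.3.3, DESeq2 1.42.0 and edgeR 4.0.16.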

Additional observations from a re-analysis of the deposited data

Results flagged for a closer look

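Reads placed at several sites lay outside the gene counts and numbered 4626252 in library 1 and 2706949 in library 2, where a count of 0 would allow up to 3. For comparison, Mir103-1 and Mir103-2 together held 113 and 83 own-strand counts. The tables do not give the sequence of reads placed at several sites, so how many were miR-103-3p or short forms of miR-107-3p was not tested.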

How the results depend on the processing

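Mir107 kept its direction and call under every alternative run, with log2 ratios from 1.86 to 3.42. With total counts the ratios of Mir103-1 and Mir103-2 turned to 0.81 and 0.63, 2 of the 3 loci were called higher and 0 lower in library 1 (1 and 1 with TMM), the miR-15/miR-107 group had 6 higher and 4 lower, and all genes had 295 higher and 122 lower (182 and 188 with TMM). With a filter of 100 counts Mir103-1 was not tested, Mir103-2 was at -0.31 without passing, and 1 locus was called, with 0 lower. Of all genes, 278 of 295 were called with that filter. With the negative binomial test 1 group gene was called higher and 7 lower, of 11 tested. Of all 463 genes, that test called 166 higher and 179 lower. Each of these settings alters only the scaling, the genes kept or the assumed spread. Odds ratios between loci were the same with unstranded counts, which equal the own-strand counts at these loci, so this setting could not alter them. Leaving out a library gave Mir107 levels of 276.7 to 2963 CPM. No paired analysis was possible because there is 1 group. The 17 and 10 counts of Mir103-1 in libraries 1 and 2 limit the precision of its ratios; why they were low was not tested.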

Other observations

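Other miRNA genes in paralogous host introns, whose copies share long runs, also had unequal counts. Mir128-1 and Mir128-2, which share 23 nt, had 53592 and 16271 counts in library 1 and 2623 and 1379 in library 2, and both were higher in library 1 (log2 ratios 3.20 and 2.41 with TMM). Mir26a-1 and Mir26a-2 share 25 nt and had 272 and 198 counts in library 1 and 6 and 115 in library 2 (3.93 and -0.36 with TMM, 5.10 and 1.02 with total counts). Mir26b, which shares no more than 11 nt with another hairpin, had 27061 counts in library 1 and 60616 in library 2 and was lower under both scalings (-2.31 with TMM). In libraries 1 and 2, Mir218-2 had 102 and 14 counts (1.57) and Mir218-1 had 18 and 6 (0.33, binomial adjusted p = 0.692). TMM called 4 of the 7 higher and 2 lower, with a median log2 ratio of 1.57, and total counts called 6 higher and 1 lower. The shares over all tested genes were 39.3% higher and 40.6% lower (TMM), or 63.7% and 26.3% (total counts).

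Of 5 tested miRNA genes known for roles in metabolism, 2 were higher and 3 lower in library 1 with TMM and with total counts (median log2 ratio -3.29 with TMM). With so few genes these counts are read only beside the same all-gene shares, 39.3% higher and 40.6% lower with TMM. Mir33, in an intron of the cholesterol regulator Srebf2, had 121 and 30 counts in libraries 1 and 2 (0.82 with TMM). Mir375, an endocrine miRNA, had 639 and 241 counts (0.26), and with DESeq2 size factors its ratio was 0.11 and did not pass (binomial adjusted p = 0.374; 0.0237 with TMM and 8.6e-59 with total counts). In the same libraries, in that order, Mir378a had 10690 and 208475 counts (-5.43), Mir143 had 14193 and 84860 (-3.73), and liver Mir122 had 259 and 1163 (-3.29). Mir802 had 0 counts in library 1 and 1 in library 2 and was not tested.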
